A study of Mus musculus with 6 samples.

Results

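The genes of meiotic recombination *Spo11*, *Mei1*, *Mei4*, *Prdm9*, *Dmc1*, *Meiob*, *Msh4*, *Msh5*, *Hfm1* and *Mlh3* were examined in nuclear RNA from mouse embryonic stem cells. They were chosen by their known function in breaking and rejoining chromosomes, at a time when the behaviour of *Msh4* and *Mei1* in these data was already known, and their entries were selected on the highest base mean. Each of the 10 genes had 1 entry among the 20633 RefSeq entries of the deposited table, so that no choice between entries was needed.

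Nuclear RNA had been sequenced from 6 libraries of a cell line in which *Yaf2* is knocked out (YAF2-/-) and both alleles of *Rybp* carry loxP sites (RYBPfl/fl). The UNT group comprised 3 biological replicates that had no treatment, and the OHT group 3 that had been kept for 96 hr in 4-hydroxytamoxifen (OHT, 800 nM), which deletes *Rybp*. RYBP and its homologue YAF2 are alternative subunits of variant forms of Polycomb repressive complex 1, a histone H2A ubiquitin ligase. Both groups thus lacked *Yaf2*, the line had been grown from a picked colony, and OHT-treated cells without floxed *Rybp* were not analysed here. The measure of level used below is the base mean, which is the authors' mean over all libraries of read-pair counts normalized for library size. UNT and OHT libraries enter the same mean, so each value mixes cells with and without *Rybp* deletion and cannot show whether the groups differ. A gene whose level differs between the groups has a base mean that describes neither of them. No value per library was analysed, so sequencing depth is unknown, no spread between replicates can be given and no test was made. A difference in level between genes therefore carries no error here.

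In meiosis, homologous chromosomes pair and exchange DNA before they separate. The exchange starts with programmed double-strand breaks, continues with the invasion of the homologue by the broken strand, and ends for some breaks as a crossover. These steps take place in germ cells of the testis and fetal ovary, and embryonic stem cells, which divide by mitosis, do not perform them. Among the genes described, SPO11 is the enzyme that cuts the DNA, MEI1 and MEI4 are needed for it to cut, and PRDM9 is the histone methyltransferase that marks the hotspots where breaks fall. DMC1 is the recombinase that performs strand invasion, and MEIOB is a partner of the single-stranded DNA binding proteins at the break. MSH4 and MSH5 form a heterodimer that stabilizes the joined molecules, HFM1 is a helicase needed for crossovers, and MLH3 is an endonuclease subunit that acts in the final cut.

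Markers of the labelled cell type were abundant. All 6 pluripotency genes examined (*Pou5f1*, *Nanog*, *Sox2*, *Esrrb*, *Zfp42* and *Klf4*) lay between percentile 81.4 and percentile 99.7 of all entries by base mean per kb of genomic span, where a percentile is the percentage of entries with a lower level. The germ cell markers *Ddx4*, *Dazl* and *Stra8* lay between percentile 54.8 and percentile 68.3, and the primitive endoderm markers *Gata6*, *Gata4* and *Sox17* between 38.7 and 42.4. Fibroblast markers (*Col1a1*, *Col1a2* and *Thy1*) ranged from percentile 34.5 to 60.4 and neural markers (*Pax6*, *Neurod1* and *Tubb3*) from 45.1 to 79.4. Per kb of exon the percentiles were 85.2 to 97.8 for the pluripotency genes and 47.1 (*Dazl*) to 76.0 for the germ cell markers. On that scale primitive endoderm markers ranged from 30.6 to 48.1, fibroblast markers from 32.5 to 45.4 and neural markers from 40.2 to 71.4. None of these markers was listed at 0, and the part of other cell types in the levels below was not tested. In RNA from a whole culture, a low level in every cell and a higher level in a few cells cannot be told apart. *Yaf2* had a base mean of 3.24 and *Rybp* one of 13983. Since the *Rybp* value pools deleted and undeleted cells, it is no check of the deletion.

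The genes differ in size, which bears on any count of nuclear RNA because introns are still present in part of it. *Mei4* was the longest, with a transcript of 163357 bp and 5 exons in the mm10 assembly (chr9:81863670-82027026, plus strand), of which 98.4% is intron. *Spo11* was the shortest, with 13719 bp and 12 exons (chr2:172979849-172993567, plus strand). Between them lay *Hfm1* (chr5:106840197-106925890, minus strand, 40 exons), *Mei1* (chr15:82069997-82126659, plus strand, 31 exons), *Msh4* (chr3:153857273-153904891, minus strand, 21 exons) and *Dmc1* (chr15:79561611-79605099, minus strand, 12 exons). *Mlh3* (chr12:85234529-85270591, minus strand, 12 exons), *Meiob* (chr17:24804311-24839787, plus strand, 14 exons), *Prdm9* (chr17:15543079-15563323, minus strand, 10 exons) and *Msh5* (chr17:35028605-35046622, minus strand, 24 exons) were shorter. The median span of the 10 genes was 39.8 kb, against 19.2 kb for the 20261 entries with a transcript in the annotation. Exon lengths were also uneven, with 3323 bp of *Mlh3* in its exon 2 and 2282 bp of *Prdm9* in its exon 10. The longest intron of *Mei4*, intron 3, covers 51.5 kb, which is more than the whole span of *Msh4* (47.6 kb).

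**Figure D1:**
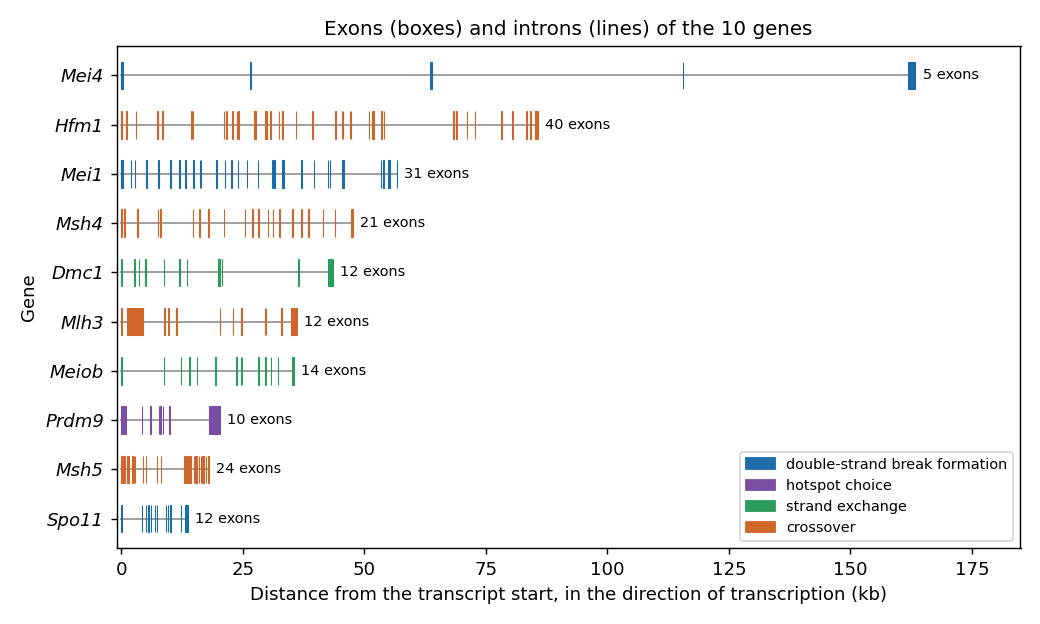
Exon and intron structure of the 10 genes, with the distance from the transcript start in kb on the horizontal axis, exons as boxes (outlined so that short ones stay visible), introns as lines and colours for the step of recombination. *Mei4* extends to 163.4 kb with 5 exons, whereas *Hfm1* holds 40 exons in 85.7 kb and *Spo11* ends at 13.7 kb.

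The base means of the 10 genes covered a range of 150-fold. None was listed at 0. Their median was 146.5 normalized counts, against 236.4 for all entries (quartiles 11.3 and 1142), and 4 of the 10 lay above the median of all entries. *Dmc1* was the highest, with a base mean of 1779 at percentile 82.5. *Mlh3* followed with 1147 at percentile 75.0. These 2 genes were the members above the upper quartile of all entries. *Mei4* had a base mean of 739.2 at percentile 67.4, and *Hfm1* had 364.1 at percentile 55.9. The other crossover genes were lower, with 161.7 for *Msh5* and 94.8 for *Msh4*, its partner in the heterodimer. *Mei1* had a base mean of 131.2 and *Prdm9* one of 123.3. *Meiob* and *Spo11* were far below the others, with 15.4 at percentile 27.0 and 11.9 at percentile 25.3, both just above the lower quartile of all entries. The gene for the enzyme that makes the breaks was therefore the lowest of the 10 on this scale, and the gene for the recombinase that acts on them was the highest.

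**Figure D2:**
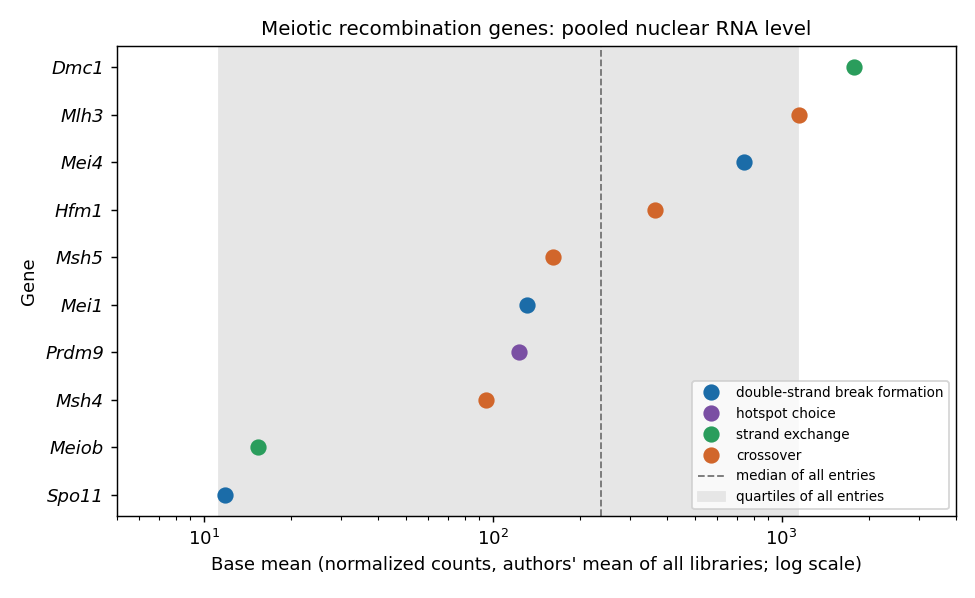
Base mean of each gene in normalized counts, pooled by the authors over all libraries, on a log scale, with the median (dashed line) and quartiles (grey) of all 20633 entries. *Dmc1* lies right of the grey band and *Mlh3* (1147) at its right edge (1142), 6 genes lie below the dashed line, and *Spo11* (11.9) and *Meiob* (15.4) sit at the left edge of the band.

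A base mean grows with the length of a gene, so levels were compared between genes per kb. The study's methods describe a second alignment of unmapped reads meant to capture more intronic sequence. They do not state whether the counts covered introns. Genomic span was therefore used as the main length and exonic length as the alternative. Per kb of genomic span, *Dmc1* had 40.9 normalized counts, *Mlh3* had 31.8 and *Msh5* had 8.98. *Prdm9* had 6.09, *Mei4* 4.52, *Hfm1* 4.25, *Mei1* 2.32 and *Msh4* 1.99 normalized counts per kb of span. *Spo11* and *Meiob* remained at the end of the order, with 0.867 and 0.434 normalized counts per kb of span. On this scale the 10 genes had a median of 4.39, against 10.99 for all entries, and *Dmc1* and *Mlh3* were the members above that median, at percentiles 72.3 and 67.5. *Meiob*, at percentile 22.2, was the member below the lower quartile.

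Per kb of exon, 3 genes lay above the median of all entries, since *Mei4* joined *Dmc1* and *Mlh3*. *Mei4* moved from percentile 39.9 per kb of span to percentile 67.8 per kb of exon, the largest shift among the 10 genes. *Dmc1* moved from percentile 72.3 to 89.3, with 921.2 normalized counts per kb of exon. *Mlh3*, *Prdm9* and *Msh5* moved the other way, from 67.5 to 62.9, from 42.9 to 39.6 and from 47.3 to 44.1. For *Spo11* the scales differed little, with percentiles of 26.7 and 26.6. Of the 45 pairs of genes, 39 stood in the same order on both scales, and *Dmc1* was first on both. The lowest gene was *Meiob* per kb of span and *Spo11* per kb of exon (8.68 against 7.32 normalized counts per kb of exon), so that the order of these genes is not fixed.

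**Figure D3:**
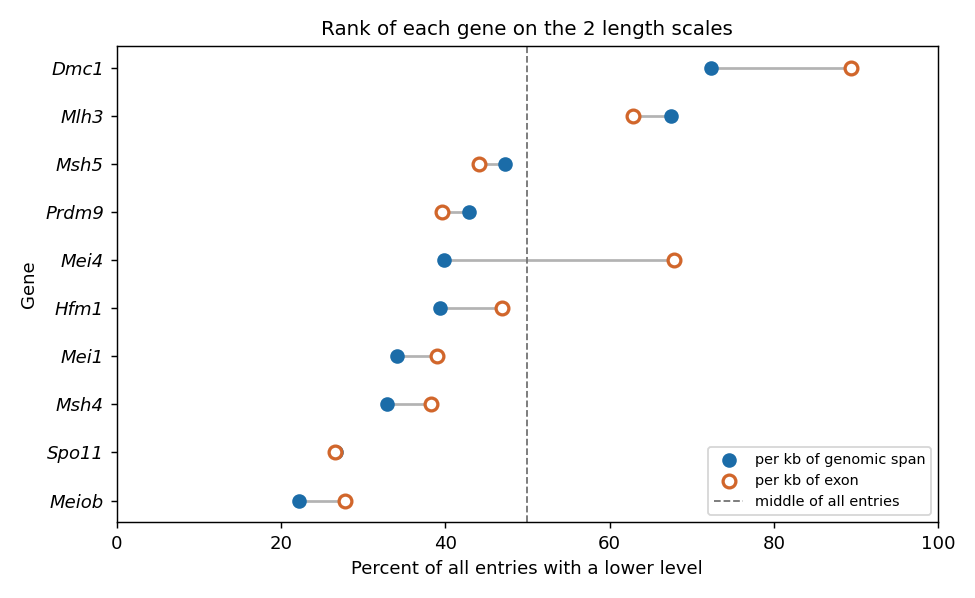
Percentage of all entries with a lower level than each gene, per kb of genomic span (filled) and per kb of exon (open), with a dashed line at the middle of all entries. *Mei4* crosses the middle between the scales (39.9 and 67.8), *Dmc1* and *Mlh3* lie right of it on both, and the other 7 genes lie left of it on both.

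Some of these genes have relatives that work in dividing cells, against which their level can be set. MSH4 and MSH5 belong to the same family as the mismatch repair protein MSH6. *Msh4* stood at 0.302% of *Msh6* per kb of span and at 1.24% per kb of exon. *Msh5* stood at 1.36% of *Msh6* per kb of span and 2.28% per kb of exon. *Msh6* had the highest level per kb of span among the repair genes examined, and against *Msh3*, another mismatch repair gene of the family, the values per kb of span were 7.60% for *Msh4* and 34.3% for *Msh5*. Per kb of exon they were 3.21% and 5.90%. Within the MSH4-MSH5 heterodimer, *Msh4* had 22.2% of the level of *Msh5* per kb of span and 54.4% per kb of exon, so that *Msh5* was the higher on both scales.

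MLH3 is related to PMS2, a mismatch repair subunit. *Mlh3* stood at 64.7% of *Pms2* per kb of span and at 98.3% per kb of exon. MEIOB is related to RPA1, the large subunit of the general single-stranded DNA binding complex, and *Meiob* stood at 0.535% of *Rpa1* per kb of span and 0.656% per kb of exon. HFM1 resembles the helicases SNRNP200, of the spliceosome, and ASCC3. *Hfm1* stood at 1.95% of *Snrnp200* and 16.9% of *Ascc3* per kb of span, and at 7.01% and 8.65% per kb of exon. *Spo11*, *Mei1*, *Mei4*, *Prdm9* and *Dmc1* were not set against a relative.

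Wider lists of recombination genes were examined in the same way. Of 30 genes of break formation, strand exchange and crossover formation, 25 had an entry, found by symbol or synonym, and no entry was matched for *Ankrd31*, *Shoc1*, *Spo16*, *Rnf212* and *Rnf212b*. Of the 25, 9 lay above the median of all entries per kb of span and 13 per kb of exon. Among break formation and hotspot genes, 1 of 8 lay above the median per kb of span, namely *Zcwpw1*, the reader of PRDM9-deposited marks, with 16.96 normalized counts per kb. The median of this list was 3.42 normalized counts per kb of span. *Rec114*, the partner of MEI4, had 1.59 and was the third lowest of the 25 genes on this scale, after *Meiob* and *Spo11*. Per kb of exon *Rec114* had 159.5 normalized counts, at percentile 58.1. On that scale 3 of the 8 genes of this list lay above the median of all entries. The gene for the partner of SPO11 in the cutting enzyme, *Top6bl* (*Gm960* in the reference), had 1.94 normalized counts per kb of span, so that *Spo11* stood at 44.6% of it per kb of span and 11.7% per kb of exon.

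Strand exchange genes were the highest of these lists, with 5 of 9 above the median of all entries and a median of 17.9 normalized counts per kb of span. *Sfr1* (406.2), *Swi5* (139.3) and *Psmc3ip* (110.2 normalized counts per kb of span) were the highest of the 25 genes. SFR1 and SWI5 act in the repair of dividing cells too, and PSMC3IP (HOP2) assists DMC1. Per kb of span *Dmc1* came next to these, whereas *Meiob* was the lowest of the list and stood at 6.83% of *Spata22*, its obligate partner. Per kb of exon the highest were *Swi5* (2442), *Mnd1* (1388), *Sfr1* (957.8) and *Dmc1* (921.2), and *Psmc3ip* had 308.4. Among crossover genes 3 of 8 lay above the median of all entries per kb of span, with *Mlh3* the highest and *Msh4* the lowest. Per kb of exon, *Tex11* was the highest (447.2, against 211.6 for *Mlh3*) and *Prr19* the lowest (27.3, against 30.5 for *Msh4*).

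All 17 genes examined of recombination and mismatch repair in dividing cells lay above the median of all entries by base mean, per kb of span and per kb of exon. Their median was 62.6 normalized counts per kb of span. The lowest of them per kb of span was *Nbn*, a subunit of the complex that senses breaks, with 25.6, and 8 of the 10 meiotic genes were below it. *Dmc1* and *Mlh3* were not. By base mean 6 of the 10 were below the lowest repair gene, *Mus81* (341.6), and per kb of exon 7 were below it, all but *Mei4*, *Dmc1* and *Mlh3*. These lists were not compared by a test, since genes are not replicates and each level is a single pooled value. They also do not divide genes into meiotic and mitotic ones, since SFR1 and SWI5 of the strand exchange list act in dividing cells too.

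**Figure D4:**
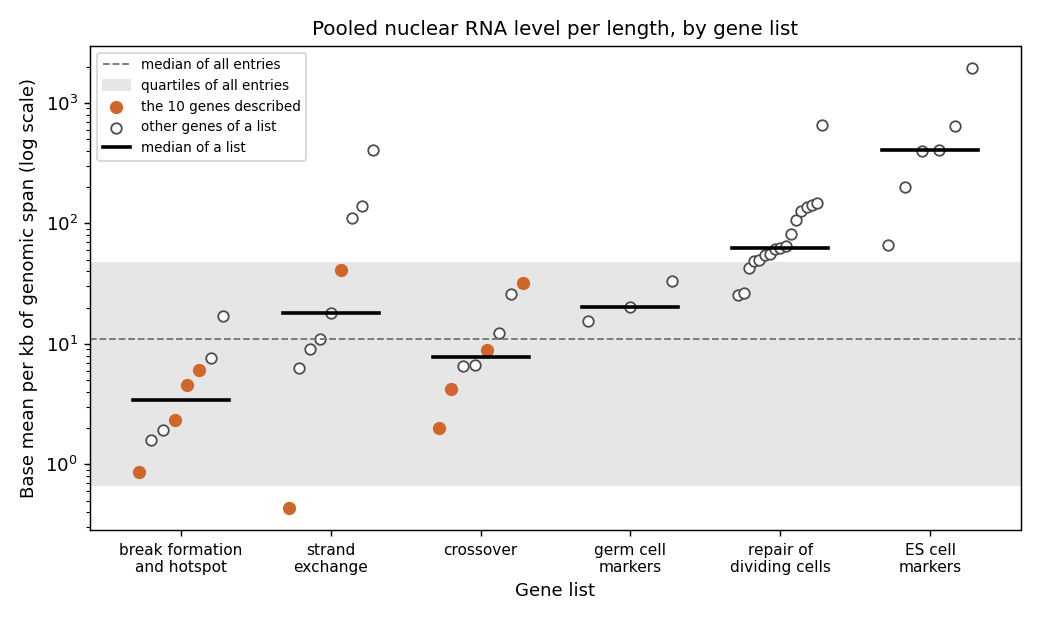
Base mean per kb of genomic span on a log scale for each matched gene of 6 lists, with the 10 genes described filled, the median of each list as a bar, and the median (dashed line) and quartiles (grey) of all entries. All 17 repair genes lie above the dashed line, as do *Dmc1* (40.9) and *Mlh3* (31.8), and the remaining 8 of the 10 genes lie below it.

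Promoter sequence was available from RefSeq for 8 of the 10 genes, and for 7 of them (70.0%) the start lay within 10 bp of that of the deposited entry. For *Mei1* the listed start was 12479 bp downstream of the entry's start, and its sequence was not used. With fewer than 80% of the genes covered, a check of sequence composition over all of them is void, and values are given gene by gene. In the 250 bases before the start, *Hfm1* had 34 CpG dinucleotides, *Msh5* had 22, *Mlh3* had 16, *Mei4* and *Dmc1* had 12 each and *Prdm9* had 9. *Msh4* had 4, below the median of 6 over all promoters. The promoters of *Dmc1* (GRCm38.p6, minus strand, chr15:79605110-79605359) and *Msh4* (GRCm38.p6, minus strand, chr3:153904892-153905141) follow because *Dmc1* had the highest level of the 10 genes and *Msh4* the lowest among those with a usable promoter. Capitals mark CpG, and the last base lies just before the listed start.
*Dmc1*: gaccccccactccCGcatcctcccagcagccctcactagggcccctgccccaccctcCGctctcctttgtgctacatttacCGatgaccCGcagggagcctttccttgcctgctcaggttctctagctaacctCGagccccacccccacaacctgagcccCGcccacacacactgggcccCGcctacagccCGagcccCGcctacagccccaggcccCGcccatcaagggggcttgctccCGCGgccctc
*Msh4*: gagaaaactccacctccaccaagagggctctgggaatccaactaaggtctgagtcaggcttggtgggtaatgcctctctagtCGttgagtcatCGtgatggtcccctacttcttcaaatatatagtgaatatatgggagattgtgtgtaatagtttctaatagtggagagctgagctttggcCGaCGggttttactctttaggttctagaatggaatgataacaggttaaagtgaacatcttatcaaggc

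The *Dmc1* stretch has a GC content of 68.8% and the *Msh4* stretch one of 43.6%, against a median of 52.4% over all promoters. The ratio of observed to expected CpG was 0.498 for *Dmc1* and 0.347 for *Msh4*, against a median of 0.374 over all promoters. *Hfm1*, with the most CpG of the 7 genes (more than 96.5% of all promoters), had 4.25 normalized counts per kb of span, and *Dmc1* had 40.9. *Msh4* had both the fewest CpG and the lowest level of the 7. Whether level follows CpG content was not tested. The E-box CACGTG, a site bound by MYC-related factors including MGA with MAX, was searched on both strands from 250 bases before to 50 after the start. It was found in 0 of the 7 promoters and in 7.15% of all promoters of the same length. The sequence TTTGGCGC, which resembles sites of E2F factors, was searched only after the promoters had been read. It was present in 1 of the 7 promoters, that of *Dmc1*. There it begins at base 2, counted from the listed start as base 1. Among all promoters 0.514% hold it, but the choice of letters after reading makes this share no test of the match. Matches and their absence describe these letters in this window and say nothing of binding.

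Annotated features that share genomic sequence with these genes were few. *Spo11*, *Mei1*, *Mei4*, *Meiob* and *Msh5* overlapped 0 other annotated genes. A processed pseudogene on the opposite strand, *Gm18564*, covers 13.1% of the *Prdm9* span, and one covers 1.11% of *Mlh3*. Small RNA genes and pseudogenes covering at most 0.294% of the span were found in *Dmc1*, *Msh4*, *Hfm1* and *Mlh3*. No entry of the table carries the symbol of any of these features, and whether the authors' counts separate strands is not given in the sources used here.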

How the data were processed

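Nuclear RNA had been depleted of rRNA and sequenced as directional 40 bp read pairs. Per the study's methods, the authors removed rRNA reads with bowtie2, used STAR for alignment to mm10, passed unmapped reads to bowtie2, took read pair counts from a custom script over a non-redundant set of RefSeq genes filtered on size and mappability, and ran DESeq2 at its defaults. Tool versions are not given in the sources used here.

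The deposited base mean is a signal, which the authors' DESeq2 run gives as the average normalized count of every library, UNT and OHT together. The deposited table also holds the authors' own comparison of OHT with UNT (log2 fold changes, their standard errors, Wald statistics, p-values, adjusted p-values and a significance flag), and none of these columns was used. The table holds no column for a single library, and depth per library is unknown, so no replicate error, no interval of a level and no test was computed. For the alternatives, a percentile was taken as moved where it left the exact 95% binomial interval of the main percentile, which counts entries and covers no error of the level.

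Gene symbols were taken from RefSeq (GRCm38.p6) first and GENCODE vM21 otherwise, which gave a symbol to 20560 of 20633. Transcript coordinates and lengths come from GENCODE vM21, whose build is mm10, for 20261 entries. Percentiles and levels per kb of genomic span (main) or exon (alternative) were computed with pandas 2.3.3, numpy 2.4.6 and scipy 1.17.1 under Python 3.11.15, drawn with matplotlib 3.10.9, and tested on simulated data. Promoter sequences come from RefSeq (GRCm38.p6). The genes and lists were chosen with earlier results of these data known. The genes named are the 10 members, *Rybp* and *Yaf2*, the relatives of members in dividing cells, and cell type markers. The 3 highest and 3 lowest of the wider recombination lists per kb of span are named too. *Zcwpw1*, *Top6bl*, *Spata22*, *Mnd1*, *Tex11*, *Prr19*, *Msh3*, *Mus81* and *Nbn*, and the lists' unmatched genes, were named after their values were seen. Some genes under this rule and some of the list of repair genes are not reported here. The alternatives tried were other reference entries, another choice of entry, a minimum base mean of 10, exonic length and a shorter promoter window.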

Additional observations from a re-analysis of the deposited data

How the results depend on the processing

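No paired analysis was possible because each entry has a single pooled mean, and for the same reason leaving out replicates was not run. The number of genes above the median of all entries was 4 of 10 by base mean, and 3 when entries with a base mean under 10 were left out. Keeping only entries with a base mean above 0 lowered the median percentile of the 10 genes by base mean from 44.5 to 40.3, because the 1435 entries at 0 no longer counted as lower. With exonic length in place of genomic span, the median percentile per kb moved from 39.6 to 41.8 and the number above the median from 2 to 3. Keeping 1 entry per gene symbol moved 2 of the 10 percentiles beyond their exact 95% binomial interval. Taking the entry with the lowest base mean moved none of the 10, as each gene has 1 entry. Keeping only entries with a base mean above 0 moved all 10, and exonic length moved 9 of the 10 percentiles per kb. No E-box was found with the shorter promoter window either. Depth per library is unknown, so the smallest levels, those of *Spo11* and *Meiob*, carry an error that cannot be given.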
